A study of Homo sapiens with 9 samples.

Results

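This is an account of 7 genes for secreted matrix proteins, cell surface receptors and an annexin, described across 5 treatments of A673. This human line was grown from a Ewing tumour and bears the EWS/FLI fusion gene, a chimeric transcription factor. They are CCN1, CCN2, THBS1, TGFBI, CD44, ANXA1 and F2R, out of 11963 genes that a probe set of the array names alone. All 19 probe sets that name a member as their only gene were taken, out of 19065 such probe sets, with 8 for CD44, 5 for THBS1, 2 for CCN1 and 1 for each of the other 4 genes. The members were chosen by name, as genes that the fusion is held to repress, and were selected on results of these arrays that were already known. The comparisons of the EZH2 siRNAs with their control, and whatever rests on them, are counted as used, and so are a description with no test. Which values were used is not stated, and those with TSA may have been among them, so the tests of TSA against DMSO are not independent of the choice either.

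RNA was measured on 9 short-oligonucleotide expression arrays. An siRNA at 5 nM was left on the cells for 48 hours. There were 2 arrays of a control siRNA, 2 of EZH2 siRNA no.2, and a single array of a further EZH2 siRNA that carries no number in its title and is called the unnumbered EZH2 siRNA here. The drug groups lasted 24 hours, with 2 arrays of 100 nM trichostatin A (TSA), which blocks histone deacetylases, and 2 arrays of the 0.01% DMSO control. All groups share the one cell line and its fusion gene, and none had the fusion removed. Titles call the replicates biological, but nothing states separate cultures, so the spread here is that between these arrays, and their number limits the precision.

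EZH2 is the enzyme of Polycomb repressive complex 2 that methylates lysine 27 of histone H3, a mark of silent genes. Histone deacetylases also keep genes quiet, by removing acetyl groups from histone tails. Matricellular proteins such as CCN1, CCN2 and THBS1 are secreted into the matrix without building it. They bind integrins and other receptors and alter adhesion, migration and the supply of growth factors. In Ewing sarcoma cells the fusion is known to hold down genes of adhesion and of the matrix, while it switches on others. CCN1 and CCN2 are textbook targets of the coactivators YAP and TAZ, which bind DNA through TEAD factors at the letters GGAATG.

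RefSeq's promoter table (GRCh38.p14) held 5 of the 7 members, CCN2, CD44, ANXA1, TGFBI and THBS1. The 250 bases before the start site of each were searched on both strands for GGAATG. CCN2 held 3 copies, THBS1 held 1, and CD44, ANXA1 and TGFBI held none. These are the sequences of the 2 members with a copy, from 5′ to 3′ on the gene's strand, with each copy in capitals. The CCN2 stretch is chr6:131951373-131951622 on the minus strand and the THBS1 stretch is chr15:39580829-39581078 on the plus strand.
CCN2: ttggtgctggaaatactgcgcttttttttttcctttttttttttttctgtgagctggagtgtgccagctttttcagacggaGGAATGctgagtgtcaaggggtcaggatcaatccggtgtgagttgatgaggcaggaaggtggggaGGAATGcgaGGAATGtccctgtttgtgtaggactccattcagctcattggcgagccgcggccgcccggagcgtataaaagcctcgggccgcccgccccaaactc
THBS1: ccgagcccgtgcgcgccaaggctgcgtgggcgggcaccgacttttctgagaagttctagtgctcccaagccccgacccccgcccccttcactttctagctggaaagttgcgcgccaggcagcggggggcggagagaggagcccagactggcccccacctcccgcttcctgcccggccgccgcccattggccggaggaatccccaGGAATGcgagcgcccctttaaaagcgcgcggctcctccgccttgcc

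In CCN2 the copies begin 169, 104 and 95 bases before the start site, and in THBS1 the copy begins 46 bases before it. Of 35116 promoter stretches of the same length, 11.9% held at least 1 copy and 0.0826% held 3 or more. GGAATG contains GGAA, the core that ETS factors such as FLI1 read, so the letters alone do not separate these factors. The AP-1 letters TGANTCA, found in 6.57% of all stretches, and the ETS repeat GGAAGGAA, found in 3.06%, were in none of the 5. The TATA letters TATAAA, found in 10.7% of all stretches, occurred once each in CCN2 and ANXA1. A match is a run of letters and not a measured site.

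The values are MAS5 signals, which were turned into log2(signal + 25.1) for every difference given below. The trimmed mean signal was alike on all arrays (499.9), and the median signal ran from 125 to 159. Hybridisation control probe sets split along the replicate numbers, at mean log2 values of 9.89 to 10.23 on the 4 replicate 1 arrays and the unnumbered siRNA array, and 10.49 to 10.59 on the 4 replicate 2 arrays. For that reason differences are also given by replicate number. EZH2 itself stood at 572 and 271 with siRNA no.2 and at 681 with the unnumbered siRNA, against 1130 and 1172 with the control siRNA. Of the marker lists, 5 of 5 Ewing genes on the array, with CD99 at a mean of 17676, lay above the floor set for testing. Of 6 endothelial genes 1 did (PECAM1). Of 5 blood genes 3 did (CD79A at a mean of 359, HBB at 169 and CD3D at 56.3), while PTPRC and CD14 lay below. Of 5 epithelial genes 2 did (KRT18 at 6424 and KRT8 at 215), while EPCAM, CDH1 and KRT19 lay below.

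Signals in the arrays of EZH2 siRNA no.2 and of its control did not overlap for any of the 7 genes on the leading probe set, the one of highest mean signal for each gene. All 7 were higher with the EZH2 siRNA, from 1.37-fold for THBS1 to 2.44-fold for CCN1 in the mean signal. Of all 13671 probe sets tested, 22.4% were higher without overlap there. This comparison is counted as used in the choice of the genes, so nothing is read from the count. With TSA, 5 of the 7 were higher than DMSO without overlap (CCN1, CCN2, TGFBI, CD44 and F2R), as were 16.1% of all probe sets tested. THBS1 overlapped, and ANXA1 overlapped with a mean below that of DMSO. On the leading probe set, CCN1, TGFBI, CD44 and F2R were higher without overlap under siRNA no.2, the unnumbered siRNA and TSA. Each treatment was set against its own control. Among the 7, F2R alone had all arrays of these treatments above every control siRNA and DMSO array. Its control siRNA and DMSO arrays overlapped each other. The F2R pattern was also seen outside the members in TNC. SERPINE2, SLC2A5 and GPR15 had it too, but they were picked for a pattern like that of the members, so nothing is read from them. The share over all probe sets was not counted.

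**Figure D1:**
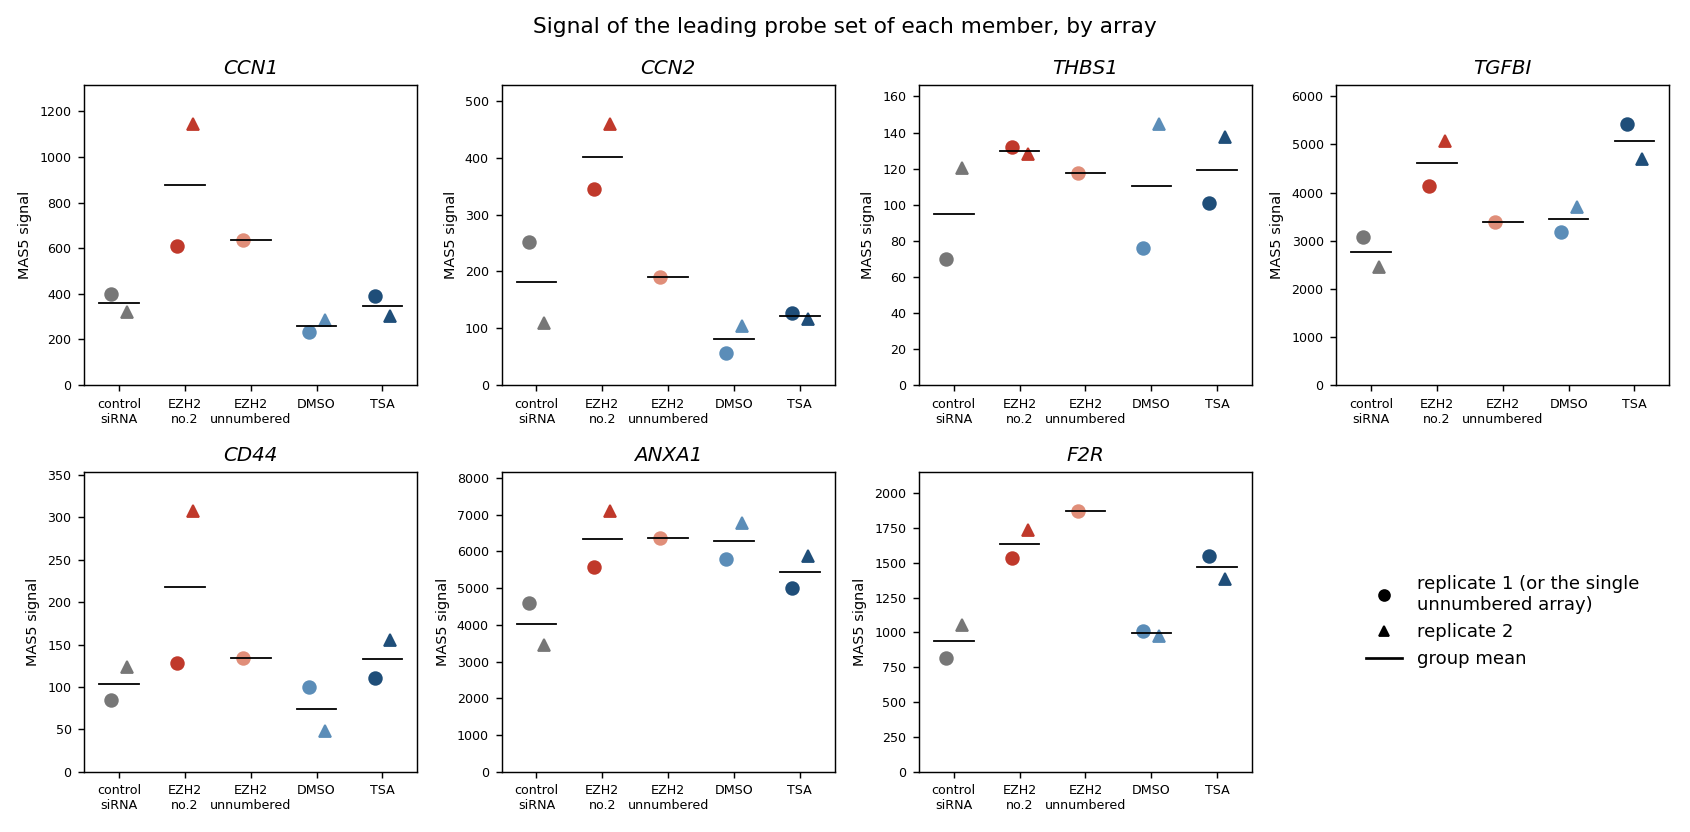
MAS5 signal (linear axis from 0, scaled per gene) of the leading probe set of each member on the 9 arrays. Circles are replicate 1 or the single unnumbered array, triangles are replicate 2, and lines are group means. With EZH2 siRNA no.2 both arrays lie above both control siRNA arrays in every panel, while the F2R panel alone has all 3 EZH2 siRNA arrays and both TSA arrays above all 4 control arrays.

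CCN1 encodes a secreted integrin-binding protein that cells make at once when they are stimulated or stretched. Its leading probe set (201289_at) gave 401 and 318 with the control siRNA, 611 and 1144 for EZH2 siRNA no.2, and 636 with the unnumbered siRNA, in the order of replicate 1 and replicate 2. It gave 233 and 284 in DMSO and 391 and 301 in TSA. All 3 EZH2 siRNA arrays were above the other 6, and the second array of siRNA no.2 stood far above the first. On the log2 scale, which understates the change of dim genes, the difference with siRNA no.2 was 1.17 (SE 0.33, 95% interval 0.46 to 1.89). It was 0.58 by the replicate 1 arrays and 1.77 by the replicate 2 arrays, 0.73 without siRNA no.2 replicate 2 and 1.61 without replicate 1. With the unnumbered siRNA it was 0.79 (SE 0.40, −0.09 to 1.67).

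The other CCN1 probe set (210764_s_at) overlapped between siRNA no.2 and control. Its first siRNA no.2 array (307) was no higher than the controls (309 and 265), and its second array was at 908. The unnumbered siRNA array (524) was above both controls, and TSA (383 and 267) overlapped DMSO (275 and 230). In TSA the log2 difference of the leading probe set was 0.38 (SE 0.33, limma adjusted p = 1.00), with 0.69 and 0.08 by replicate number. CCN1 levels were thus ordered as siRNA no.2, unnumbered siRNA, control siRNA, TSA and DMSO by their means. The unnumbered array lay within the range of siRNA no.2, and TSA overlapped the control siRNA.

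CCN2 encodes the related connective tissue growth factor, a marker of fibrosis. It has 1 probe set (209101_at), with 252 and 110 in the control siRNA arrays and 344 and 459 in those of siRNA no.2. The unnumbered siRNA array was at 190, between the controls. DMSO gave 57.1 and 104, and TSA 126 and 117, so that both TSA arrays were above both DMSO arrays and below the first control siRNA array. CCN2 differed on the log2 scale by 1.13 (SE 0.39, 0.27 to 1.99) with siRNA no.2, 0.15 (SE 0.48, −0.89 to 1.20) with the unnumbered siRNA and 0.51 (SE 0.39, limma adjusted p = 1.00) with TSA. By mean signal the order was siRNA no.2, unnumbered siRNA, control siRNA, TSA and DMSO, and the control siRNA overlapped both of its neighbours. Without control siRNA replicate 2 the difference was 0.61 for siRNA no.2 and −0.37 for the unnumbered siRNA, and without replicate 1 it was 1.65 and 0.68. DMSO stood below the control siRNA (log2 −0.91, SE 0.39, limma adjusted p = 1.00).

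THBS1 encodes thrombospondin-1, a large glycoprotein that binds CD36 and CD47, restrains the growth of vessels and can activate latent TGF-beta. Only 2 of its 5 probe sets passed the floor, and the 3 others had mean signals of 3.63 to 7.51, so its level is poorly measured here. The leading one (215775_at) gave 69.7 and 120 with the control siRNA, 132 and 128 with siRNA no.2, and 118 with the unnumbered siRNA. DMSO gave 76.2 and 145, and TSA 101 and 138. The siRNA no.2 arrays were above the controls by a small margin, and the other groups overlapped. For siRNA no.2 the difference was 0.40 on the log2 scale (SE 0.37, −0.42 to 1.22), and 0.09 without control siRNA replicate 1 or 0.71 without replicate 2. Apart from siRNA no.2 against the control siRNA, each group overlapped its neighbours in the order siRNA no.2, TSA, unnumbered siRNA, DMSO and control siRNA.

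The second THBS1 probe set (201108_s_at) gave 61.4 and 61.3 with the control siRNA, 76.1 and 111 with siRNA no.2, and 143 with the unnumbered siRNA, the highest of its 9 values. Its log2 difference was 0.44 (SE 0.38, −0.40 to 1.27) with siRNA no.2 and 0.96 (SE 0.46, −0.07 to 1.98) with the unnumbered siRNA. Against DMSO, TSA gave 0.13 (SE 0.37) on the leading probe set and 0.41 (SE 0.38) on this one, and neither passed (limma adjusted p = 1.00 each). The sign of the leading one turned to −0.25 without DMSO replicate 1 and to −0.06 without TSA replicate 2.

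TGFBI encodes a secreted protein of the matrix that was first found through its response to TGF-beta and that binds integrins. Its probe set (201506_at) gave 3073 and 2449 with the control siRNA and 4143 and 5067 with siRNA no.2. The unnumbered siRNA array was at 3394, above the controls by a narrower margin. DMSO gave 3180 and 3709, and TSA 5424 and 4700. Both TSA arrays thus lay above both DMSO arrays, and replicate 1 of TSA was the highest of the 9. TGFBI differed on the log2 scale by 0.73 (SE 0.23, 0.22 to 1.25) with siRNA no.2, 0.30 (SE 0.29, −0.33 to 0.94) with the unnumbered siRNA and 0.55 (SE 0.23, 0.04 to 1.07, limma adjusted p = 1.00) with TSA. By replicate number TSA gave 0.77 and 0.34. TSA and siRNA no.2 overlapped at the top of the order, the unnumbered siRNA lay within the DMSO range, and the control siRNA was below them all.

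CD44 encodes the main surface receptor for hyaluronan, a large sugar of the matrix. Its leading probe set (204489_s_at) gave 84.4 and 124 with the control siRNA, 128 and 308 with siRNA no.2 and 135 with the unnumbered siRNA. DMSO gave 100.1 and 47.8, and TSA 111 and 155. The groups of siRNA no.2 and control were parted by 128 against 124, and the second siRNA no.2 array carried most of the difference in the mean. The log2 difference was 0.82 (SE 0.43, −0.13 to 1.78), 0.27 without that array and 1.38 without the first. With TSA it was 0.71 (SE 0.43, limma adjusted p = 1.00), with 0.11 and 1.31 by replicate number, 0.32 without DMSO replicate 2 and 1.10 without DMSO replicate 1. By mean signal the order was siRNA no.2, unnumbered siRNA, TSA, control siRNA and DMSO, each overlapping the next.

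The 8 CD44 probe sets did not speak with one voice beyond siRNA no.2. With that siRNA all 8 had a higher mean log2 value than the control, 3 of them without overlap. With the unnumbered siRNA 4 of the 8 were higher, and the 5 above the floor ran from −0.62 to 0.52. With TSA 6 of the 8 were higher, 1 of them (the leading one) without overlap, and the 5 ran from −0.36 to 0.71. The brightest array for 212063_at was again siRNA no.2 replicate 2 (267), where replicate 1 (60.1) matched the controls (59.6 and 70.9). Probe sets ending in _x_at can also bind other transcripts, and CD44 is spliced in many forms, which different probe sets may read unequally. Whether this bears on their disagreement was not tested.

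ANXA1 encodes annexin A1, a calcium-dependent binder of phospholipids known for damping inflammation. Its probe set (201012_at) gave 4601 and 3444 with the control siRNA, 5566 and 7101 with siRNA no.2 and 6363 with the unnumbered siRNA. DMSO gave 5778 and 6772, and TSA 5004 and 5873. All 7 arrays other than the control siRNA were above both control siRNA arrays, and siRNA no.2, DMSO and TSA overlapped one another. The unnumbered siRNA array lay within the ranges of siRNA no.2 and DMSO and above both TSA arrays. The log2 difference was 0.66 (SE 0.24, 0.13 to 1.19) with siRNA no.2 and 0.67 (SE 0.30, 0.02 to 1.32) with the unnumbered siRNA. DMSO against the control siRNA gave 0.65 (SE 0.24, limma adjusted p = 1.00). These 2 groups differ both in solvent against siRNA and in 24 against 48 hours, which cannot be told apart here. TSA was lower than DMSO by −0.21 (SE 0.24, −0.74 to 0.32, limma adjusted p = 1.00), with −0.21 and −0.20 by replicate number.

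F2R encodes PAR1, the receptor that thrombin switches on by cutting its outer end. Its probe set (203989_x_at) gave 819 and 1056 with the control siRNA, 1535 and 1735 with siRNA no.2 and 1873 with the unnumbered siRNA. DMSO gave 1013 and 976, and TSA 1552 and 1384. The 5 arrays with an EZH2 siRNA or TSA, at 1384 and above, were all higher than the 4 control arrays, at 1056 and below. F2R differed on the log2 scale by 0.79 (SE 0.24, 0.26 to 1.33) with siRNA no.2, 0.99 (SE 0.30, 0.34 to 1.65) with the unnumbered siRNA and 0.55 (SE 0.24, 0.01 to 1.08, limma adjusted p = 1.00) with TSA. By replicate number the values were 0.89 and 0.70 with siRNA no.2 and 0.60 and 0.49 with TSA. The 2 control groups overlapped (DMSO against control siRNA, log2 0.09, SE 0.24). This probe set also ends in _x_at, and no other F2R probe set was there to compare.

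**Figure D2:**
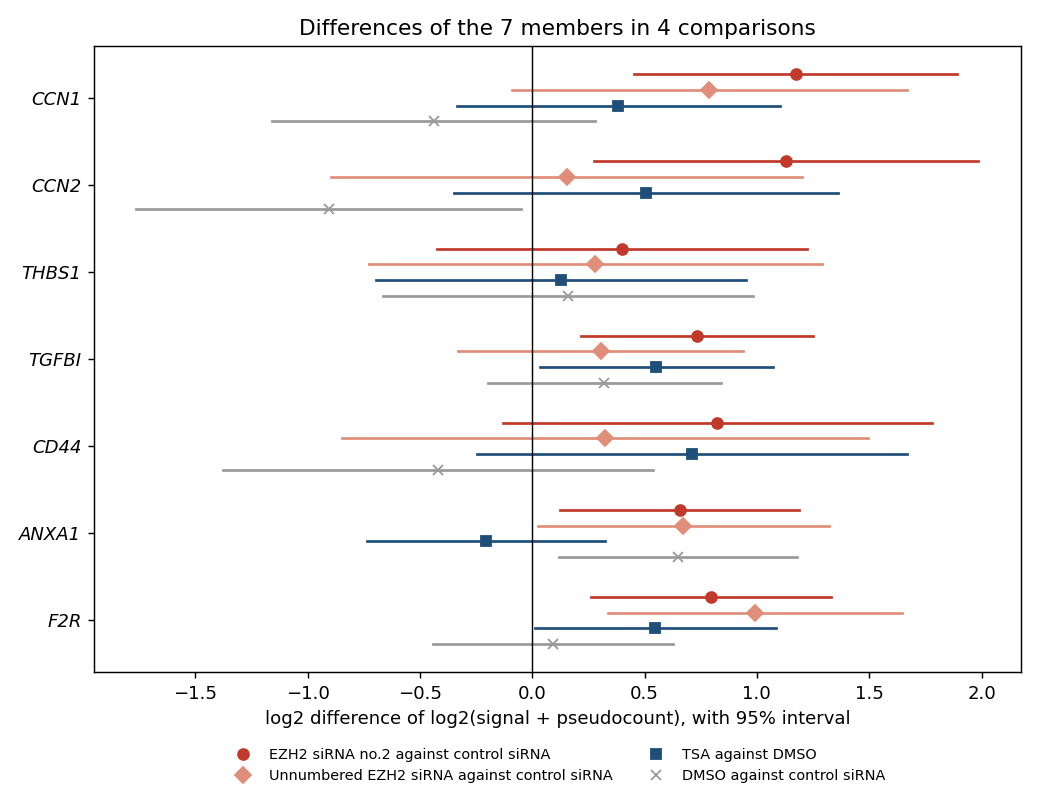
Log2 differences (points) with 95% intervals from limma (bars) for the leading probe set of each member in 4 comparisons, on the log2(signal + 25.1) scale. F2R lies right of 0 with both EZH2 siRNAs and TSA and near 0 for DMSO against control siRNA, while ANXA1 is at −0.21 with TSA and CCN2 at −0.91 for DMSO against control siRNA.

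The siRNA effects were then set beside that of TSA. The treatments lasted 48 and 24 hours and had different controls, so the differences of their effects are given as intervals. For ANXA1 the siRNA no.2 effect exceeded that of TSA by 0.86 (SE 0.34, 0.11 to 1.61) and the unnumbered siRNA effect did so by 0.88 (SE 0.38, 0.04 to 1.72). Both values contain the same TSA, DMSO and control siRNA arrays, with DMSO above the control siRNA. All 14 of these differences rest on the siRNA comparisons counted as used in the choice of the genes, so the intervals describe precision and are not read as tests. For CCN1 the siRNA no.2 effect was larger by 0.79 (SE 0.46, −0.23 to 1.80), and for CCN2 by 0.62 (SE 0.55, −0.59 to 1.83). The differences were 0.25 (SE 0.34, −0.51 to 1.00) for F2R, 0.18 (SE 0.33, −0.55 to 0.91) for TGFBI, 0.11 (SE 0.61, −1.24 to 1.47) for CD44 and 0.27 (SE 0.53, −0.89 to 1.44) for THBS1. With the unnumbered siRNA they ran from −0.39 for CD44 to 0.44 for F2R over the 6 genes other than ANXA1.

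Over the 7 leading probe sets the median log2 difference was 0.79 with siRNA no.2, 0.32 with the unnumbered siRNA and 0.51 with TSA, and 0.09 for DMSO against the control siRNA. Over all 13671 probe sets tested the medians were 0.07, 0.07, 0.04 and 0.03. With siRNA no.2 all 7 were higher without overlap, where 22.4% of all probe sets were higher without overlap and 12.8% lower. This contrast is counted as used in the choice of the genes, so nothing is read from it. With the unnumbered siRNA 5 of 7 lay above both control arrays and 0 below both, where 39.2% of all probe sets lay above and 27.9% below, and it shares its controls with siRNA no.2. With TSA 5 of 7 were higher without overlap and 0 lower, where 16.1% of all were higher and 12.1% lower. DMSO against the control siRNA had 2 of 7 higher (ANXA1 and TGFBI) and 2 lower (CCN1 and CCN2), where 19.4% of all were higher and 14.5% lower. These counts take the leading probe set of each gene, while the shares are over all tested probe sets. Of the 13 tested member probe sets, 8 were higher without overlap with siRNA no.2 and 5 with TSA, and 0 were lower. With the unnumbered siRNA 8 were higher and 2 lower, and for DMSO against the control siRNA 2 and 2.

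No member passed limma at an adjusted p under 0.05 with TSA or for DMSO against the control siRNA. Neither did any other probe set, with 0 of 13671 called (0%) in both comparisons. With 2 arrays a group, missing the threshold does not show that levels were the same. Before adjustment, limma put 330 of the 13671 probe sets under 0.05 with TSA, TGFBI and F2R among them. For DMSO against the control siRNA it put 582 there, ANXA1 and CCN2 among them. Both are smaller shares than the 0.05 that would pass if nothing differed, so nothing is read from these members being among them. Over the alternatives run, the adjusted p of the members with TSA lay between 0.63 and 1.00. All 13 member probe sets above the floor of 53.2 would have stayed above it without the group in which they were highest. The 6 below it, 3 of CD44 and 3 of THBS1, had mean signals of 3.63 to 30.5.

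Array EZH2 siRNA no.2 replicate 2 was the highest of the 9 for 4 of 7 leading probe sets (CCN1, CCN2, CD44 and ANXA1). It was highest for 9 of the 13 tested member probe sets and for 13.4% of all probe sets. This array had the lowest EZH2 signal and also the highest median signal of the 9 (158.86). Whether either bears on the members was not tested. The median difference of the 7 genes was 0.49 by the replicate 1 arrays and 1.04 by the replicate 2 arrays with siRNA no.2, and 0.60 and 0.13 with TSA. The size of the differences thus went opposite ways with replicate number in the 2 treatments. Without the second siRNA no.2 array the median was 0.59. With siRNA no.2 all 7 were higher in both replicates, and with TSA 6 and 5 were.

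**Figure D3:**
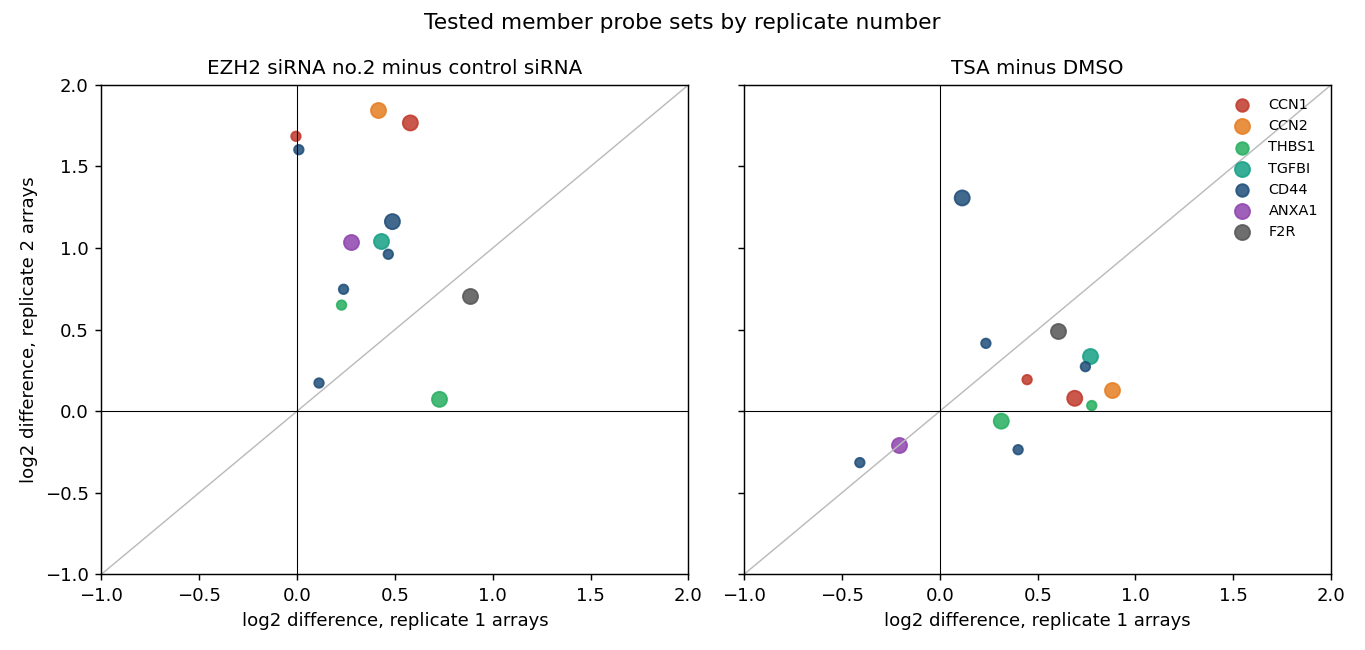
Log2 difference by the replicate 1 arrays (horizontal) and the replicate 2 arrays (vertical) for the 13 tested member probe sets, with EZH2 siRNA no.2 on the left and TSA on the right. Large points are leading probe sets, and the grey line marks equal values. With siRNA no.2, 11 of 13 points lie above the line, and with TSA 9 of 13 lie below it.

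Genes around the members came from 6 lists of the pathway and of the fusion's targets, with 96 tested genes that share none with each other or with the members, and 0 of them passed limma at an adjusted p under 0.05 with TSA or for DMSO against the control siRNA. Over all 13671 probe sets tested, 58.15% were higher with siRNA no.2, 56.29% with the unnumbered siRNA and 55.32% with TSA. The counts of all 6 lists stand against these shares and were not tested. Of 10 other matricellular genes tested, 5 were higher and 5 lower with siRNA no.2 (median 0.02), and 3 were higher with TSA (median −0.15). TNC, the adhesion-modulating tenascin C, gave 2164 and 1801 with the control siRNA, 2640 and 4038 with siRNA no.2, 2820 with the unnumbered siRNA, 1921 and 2609 in DMSO and 4189 and 2792 in TSA. Its log2 difference was 0.72 (SE 0.30) with siRNA no.2 and 0.61 (SE 0.30) with TSA. SPARC, a collagen-binding protein, was at 0.36 (SE 0.28) and −0.12 (SE 0.28).

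Of 20 receptors and partners of the members, 12 were higher with siRNA no.2 (median 0.09) and 12 with TSA (median 0.02). ANXA2, an annexin of the cell surface, was at −0.06 (SE 0.22) with siRNA no.2 and −0.28 (SE 0.22) with TSA, and RDX, which ties CD44 to actin, at 0.03 (SE 0.21) and −0.25 (SE 0.21). Of 22 genes of the YAP, TAZ and TEAD pathway, 13 were higher with siRNA no.2 (median 0.02), 9 with the unnumbered siRNA (median −0.08) and 13 with TSA (median 0.04). Of all probe sets, 58.15%, 56.29% and 55.32% were higher in these comparisons. WWTR1, which encodes TAZ, was at 0.06 (SE 0.29) with siRNA no.2 and 0.40 (SE 0.29) with TSA. DLC1 was at −0.32 (SE 0.26) and −0.14 (SE 0.26).

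Of 15 TGF-beta pathway genes 7 were higher with siRNA no.2 (median −0.02) and 12 with TSA (median 0.28). TGFB1, the ligand, was at 0.12 (SE 0.31) and 0.42 (SE 0.31), and TGIF1, a repressor of SMAD targets, at −0.31 (SE 0.25) and 0.28 (SE 0.25). Of 16 other genes held to be repressed by the fusion, 10 were higher with siRNA no.2 (median 0.34), 11 with the unnumbered siRNA (median 0.13) and 12 with TSA (median 0.28). The shares of all probe sets higher there were 58.15%, 56.29% and 55.32%. FN1, fibronectin, stood at 0.50 (SE 0.20) with siRNA no.2, 0.37 (SE 0.24) with the unnumbered siRNA and 0.48 (SE 0.20) with TSA. LGALS1, a galectin, was at −0.05 (SE 0.29) and −0.27 (SE 0.29) with siRNA no.2 and TSA. Of 13 genes that the fusion activates, 11 were lower with siRNA no.2 (median −0.45), 8 with the unnumbered siRNA (median −0.20) and 8 with TSA (median −0.03). CAV1 was at −0.03 (SE 0.19) and 0.09 (SE 0.19), and the cyclin gene CCND1 at −0.41 (SE 0.36) and 0.59 (SE 0.36).

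Fibroblasts also make much CCN2, THBS1 and TGFBI. Of their 8 marker genes 6 lay above the floor, and the 8 had summed signals of 7471 to 7720 with the control siRNA, 8571 to 9008 with siRNA no.2, 7896 with the unnumbered siRNA, 9622 to 10239.9 in DMSO and 7116 to 15705 in TSA. LUM and FAP lay below the floor, while COL1A2, at a mean of 6404, made up most of the sum. The Ewing markers summed to 29958.5 to 33784.3 with the control siRNA and 24623.4 to 26315.3 with siRNA no.2, to 28253.9 with the unnumbered siRNA, to 31487.1 and 35787.7 in DMSO and to 27850.4 and 29229.7 in TSA. CD99, at a mean of 17676, made up most of the Ewing sum. The Ewing markers NKX2-2, STEAP1 and PPP1R1A are also among the fusion-activated genes above. COL1A2 and COL3A1 are also among the other fusion-repressed genes, so the sums are not separate from those lists. What part these shifts have in the members' differences was not tested. In RNA from whole cultures fewer cells of a kind and less RNA per cell cannot be told apart.

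The genes whose pattern was most like the members' own were ranked by Pearson's r over the 9 arrays with the mean of the 7 standardised leading probe sets, among 9096 other tested genes. They were SERPINE2 (r = 0.96), a secreted inhibitor of thrombin and other proteases, the fructose transporter SLC2A5 (0.95), the centriole protein CCP110 (0.95), the receptor GPR15 (0.94) and the cochaperone DNAJA2 (0.93). The arrays share treatments and replicate numbers, and the top of so long a ranking is high by selection, so these values are a description. GPR15 had a mean signal of 60.9, near the floor of 53.2, and its control siRNA and DMSO arrays (24.6 to 48.9) lay below that floor. SERPINE2 gave 5738 and 5117 with the control siRNA, 7036 and 11475.8 with siRNA no.2, 7192 with the unnumbered siRNA, 5088 and 5917 in DMSO and 6695 and 7777 in TSA. Its groups did not overlap with siRNA no.2 or with TSA. Each member's own r with the mean of the other 6 ran from 0.40 for THBS1 and 0.47 for ANXA1 to 0.79 for F2R and 0.80 for CCN1.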

How the data were processed

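The deposited intensity values are MAS5 signals, per the submitters' processing notes, on a linear scale. The scaling, the version and detection calls are not given in the sources used here. Of 22283 probe sets, 68 were controls, 19065 named 1 gene, 1043 several and 2107 none, by GEO's platform annotation. Signals were turned into log2(signal + 25.1), the pseudocount being the 20th percentile of all values. The 13671 probe sets that name 1 gene and had a mean signal of at least 53.2 (the 30th percentile) were tested. Group means of all 9 arrays were fitted with limma 3.58.1 in R 4.3.3 (eBayes with trend, 4 residual degrees of freedom), two-sided, with Benjamini-Hochberg adjustment over all tested probe sets and a threshold of 0.05. The single array of the unnumbered EZH2 siRNA was assumed to vary as the other groups do. With 2 arrays against 2, exact permutation has a smallest p of 0.333 and was not used.

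The members and lists were chosen with earlier results of these data known. Named genes were all members, EZH2, the 2 brightest tested genes of each list, and the 5 most alike in pattern. The fit was tested on simulated data. The alternatives changed the pseudocount, the filter, the normalization, the fitted groups, the unit, the block and the arrays.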

Additional observations from a re-analysis of the deposited data

How the results depend on the processing

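Under the alternatives run, 0 probe sets passed limma at an adjusted p under 0.05 with TSA or for DMSO against the control siRNA. The median over the 7 members stayed within 0.65 to 0.81 with EZH2 siRNA no.2 and 0.33 to 0.56 with TSA, and within 0.59 to 0.88 and 0.25 to 0.56 when single arrays were left out. With the unnumbered siRNA it was 0.32, but 0.67 with a filter at the 50th percentile, which leaves 5 members, 0.49 with a hybridisation control block, and 0.32 to 0.68 with single arrays left out (0.68 without control siRNA replicate 1). For DMSO against the control siRNA it was 0.09, and −0.15 to 0.16 with single arrays left out (−0.15 without control siRNA replicate 1, −0.03 without DMSO replicate 2). The differences of 3 genes changed sign. With the unnumbered siRNA, CCN2 gave −0.37 without control siRNA replicate 2 (0.15 with all arrays) and THBS1 gave −0.03 without control siRNA replicate 1 (0.28 with all arrays). F2R for DMSO against the control siRNA gave −0.0044 with arrays scaled to the same median and −0.085 (without control siRNA replicate 1) to 0.27 with single arrays left out. THBS1 gave −0.21 (without DMSO replicate 2) to 0.53 there, with −0.15 without control siRNA replicate 1. With TSA it gave −0.25 (without DMSO replicate 1) to 0.50, with −0.058 without TSA replicate 2. Beyond the arrays named, the cause was not tested. Scaling to the same median moved the median of all probe sets with siRNA no.2 from 0.07 to −0.06, and the members' median to 0.65.

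A block for the replicate number, which leaves out the unnumbered array, cannot move the differences, since each remaining group holds both replicate numbers. The medians were therefore again 0.79 with siRNA no.2 and 0.51 with TSA, which says nothing of their stability. No probe set passed with the block either. Same-numbered arrays deviated together (r = 0.30 between control siRNA and siRNA no.2, and 0.36 between DMSO and TSA), but with 2 pairs per comparison this does not establish a pairing. Across the siRNA and drug groups r ran from 0.10 (control siRNA with TSA) to 0.41 (siRNA no.2 with TSA). The main axis of variation between arrays (first principal component, 25.5% of variance) parted the replicate 2 arrays from all others. The number of arrays limits the precision, and THBS1 and CD44 were measured at signals near the floor for testing.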
